A study of Homo sapiens with 5 samples.

Results

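The genes described here are 9 regulators that set hormone response and cell identity in the endometrium, the lining of the uterus: ESR1, PGR, GREB1, PAX8, SOX17, FOXA1, FOXA2, FOXO1 and MSX1. They were taken by symbol from a table of 58174 genes, and each symbol matched 1 gene. RNA was sequenced from Ishikawa cells, an established line derived from a human endometrial adenocarcinoma, in 5 libraries. In 3 libraries the cells carried a lentiviral short hairpin RNA (the sh-LINC00958 group) against LINC00958, a long non-coding RNA, and in 2 they carried a negative control (sh-NC). Both groups grew in the same medium with serum, and puromycin at 2.5 µg/ml was applied from 72 h after infection to keep infected cells. The sources used here do not give the hairpin sequences, the number of hairpins or the time of harvest. Whether replicate libraries stem from separate cultures is not stated, so the p-values rest on sample-to-sample spread that may be technical alone.

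ESR1 and PGR encode estrogen receptor alpha and the progesterone receptor, transcription factors that are switched on by the ovarian hormones. In endometrial epithelium estrogen drives growth, while progesterone opposes it and prepares the tissue for implantation. PAX8, SOX17, MSX1 and the forkhead factors FOXA1, FOXA2 and FOXO1 are transcription factors, most of them linked to development of the Müllerian duct, from which the uterus forms, to gland identity or to the progesterone response. Ishikawa cells are usually described as a line that carries both hormone receptors.

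Levels are TPM, a transcript abundance scaled for gene length and to the same total in every library, so that each value is a share of that library's RNA. Read counts are not part of the table, so depth is unknown and counting error cannot be stated. Each library listed 27896 to 29411 genes above 0. LINC00958 itself measured 67.2, 67.1 and 58.4 TPM in sh-LINC00958 and 119.3 and 137.4 TPM in sh-NC, or 50.04% of the control mean (limma estimate -0.99 on the log2 scale, adjusted p = 0.0119). Epithelial markers were abundant as a sum, with a level over 9 genes of 1686 to 1875 TPM in sh-LINC00958 and 1602 to 1649 TPM in sh-NC. KRT7 (2.99 to 7.41 TPM) and MUC1 (5.15 to 10.1 TPM) were low among them. KRT18 was called higher in sh-LINC00958 (log2 fold change 0.44, limma adjusted p = 0.0211) and CLDN4 lower (-2.54, limma adjusted p = 0.0335). With the trend on GC content and length removed, KRT18 was not called (0.28, limma adjusted p = 0.0562) and CLDN4 still was (-2.71, limma adjusted p = 0.0421). The CLDN4 controls differed widely, at 12.8 and 44.8 TPM. Over 7 stromal markers the sum was 6.33 to 7.09 TPM in sh-LINC00958 and 6.01 to 6.06 TPM in sh-NC. Among these, DCN was at 0 in all 5 libraries, while COL1A1 ranged from 4.33 to 5.23 TPM and HAND2 from 0.937 to 1.33 TPM. Over 5 blood markers it was 2.73 to 3.91 TPM in sh-LINC00958 and 1.73 to 3.16 TPM in sh-NC, over 3 endothelial markers 4.39 to 5.89 TPM in sh-LINC00958 and 6.46 to 6.88 TPM in sh-NC, and over 4 liver and gut markers 3.39 to 4.75 TPM in sh-LINC00958 and 3.29 to 3.78 TPM in sh-NC. In bulk RNA, fewer cells that express a gene and less RNA per cell cannot be told apart.

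The 9 genes fell into an abundant, a low and a near-absent set. PAX8 ranked 139 and MSX1 387 among the 35238 genes with a value above 0 in any library. SOX17 ranked 2890, FOXO1 8108, FOXA1 11168 and GREB1 12033. The order of levels was PAX8, MSX1, SOX17, FOXO1, FOXA1 and GREB1, and neighbours in that order did not overlap over the 5 libraries, except FOXA1 and GREB1. FOXA1 ranged from 5.60 to 10.4 TPM and GREB1 from 4.17 to 6.08 TPM, although FOXA1 stood above GREB1 within each of the 5 libraries. PGR, ESR1 and FOXA2 had a mean below 1 TPM, the minimum set for testing, and were not tested.

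**Figure D1:**
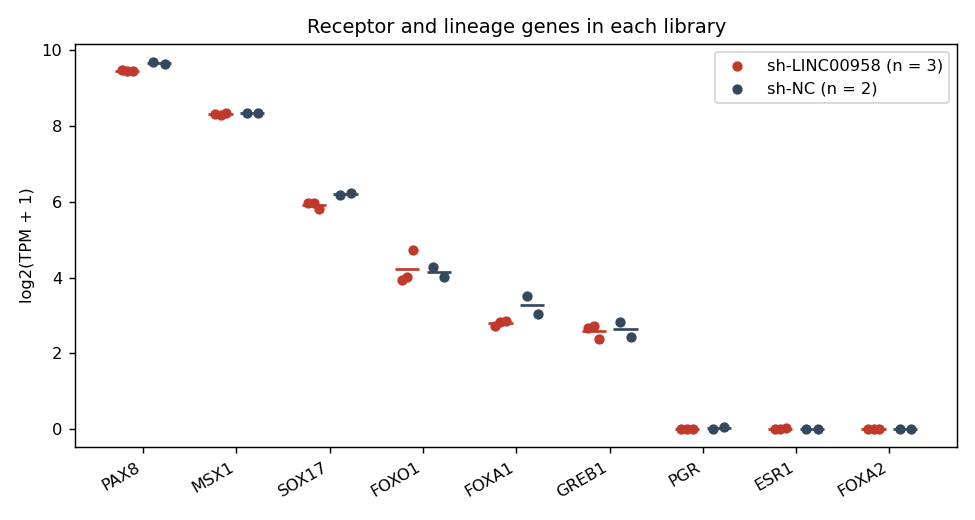
Level of the 9 genes as log2(TPM + 1) in each library; points are libraries, bars are group means, sh-LINC00958 (n = 3) left of sh-NC (n = 2). PAX8 and MSX1 lie highest in both groups, and PGR, ESR1 and FOXA2 lie at or next to 0.

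Sequence upstream of the start site is shown for the abundant pair PAX8 and MSX1 and for the near-silent receptor pair ESR1 and PGR, since their levels lie farthest apart. Each window covers 250 bases before and 50 after an annotated start (RefSeq, GRCh38.p14), and where a gene has several starts the window nearest to a principal transcript start of GENCODE release 29 is given. They lie at chr2:113278872-113279171 on the minus strand for PAX8, chr4:4859415-4859714 on the plus strand for MSX1, chr6:151690277-151690576 on the plus strand for ESR1 and chr11:101129764-101130063 on the minus strand for PGR. Capitals mark matches to the motifs searched on both strands.
PAX8: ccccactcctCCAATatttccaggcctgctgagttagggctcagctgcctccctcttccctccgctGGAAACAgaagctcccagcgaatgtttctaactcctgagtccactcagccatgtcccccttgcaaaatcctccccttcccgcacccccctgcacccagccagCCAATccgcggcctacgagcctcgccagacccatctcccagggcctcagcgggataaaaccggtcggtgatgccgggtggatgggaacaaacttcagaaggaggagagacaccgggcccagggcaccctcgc
MSX1: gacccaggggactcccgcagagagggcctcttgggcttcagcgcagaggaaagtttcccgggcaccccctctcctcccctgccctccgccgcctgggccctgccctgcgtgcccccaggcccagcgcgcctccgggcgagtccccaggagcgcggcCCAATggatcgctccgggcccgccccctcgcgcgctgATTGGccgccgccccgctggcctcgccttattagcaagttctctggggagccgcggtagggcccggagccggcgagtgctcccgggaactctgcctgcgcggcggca
ESR1: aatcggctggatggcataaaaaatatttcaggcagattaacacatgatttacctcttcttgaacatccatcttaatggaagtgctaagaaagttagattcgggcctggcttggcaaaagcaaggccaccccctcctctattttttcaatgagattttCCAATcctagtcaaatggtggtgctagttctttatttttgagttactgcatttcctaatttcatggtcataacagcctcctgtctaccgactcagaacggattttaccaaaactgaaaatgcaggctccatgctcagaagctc
PGR: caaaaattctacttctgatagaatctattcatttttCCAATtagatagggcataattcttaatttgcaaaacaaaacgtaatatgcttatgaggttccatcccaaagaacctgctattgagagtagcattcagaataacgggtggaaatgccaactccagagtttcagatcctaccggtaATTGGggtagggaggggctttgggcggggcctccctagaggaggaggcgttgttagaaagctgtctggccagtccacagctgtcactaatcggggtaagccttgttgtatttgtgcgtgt

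The capitals in these windows are CCAAT boxes (CCAAT) and, in PAX8, 1 forkhead match (TGTTTNC, read as GGAAACA) that begins 184 bases before the start. Among 35116 windows of 300 bases, 34.6% held CCAAT and 18.0% held TGTTTNC. Also searched were the estrogen response element, GGTCA and TGACC spaced by 3 bases (0.0570% of windows), its single arm AGGTCA (13.8%), the progesterone and glucocorticoid response element, GNACA and TGTNC spaced by 3 bases (0.390%), the forkhead sequence TGTTTAC (3.42%), which is a case of TGTTTNC, and the TATA box TATAAA (11.5%). AGGTCA can share bases with the full estrogen response element. None of these 5 sequences was found in the 13 windows of the 6 genes that had a window. A match is a description of letters, not a bound site, and the absence of a match covers these windows only. The MSX1 window held 31 CpG pairs and the PAX8 window 13, against 4 in the printed ESR1 window (4 to 17 over its 6 windows), 7 in the printed PGR window (7 to 17 over its 3 windows) and a median of 14 over all windows. The counts did not follow level, since the windows of the low genes FOXA1 and FOXO1 held 34 and 33. The ESR1 window with 17 lies 131 bases from a principal transcript start, against 31 bases for the printed one. The annotated start inside the printed PGR window lies 711 bases from the nearest principal transcript start, which the window does not cover. GREB1, SOX17 and FOXA2 were not in the table of windows.

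ESR1, PGR and FOXA2 were at or next to 0 in every library of both groups. ESR1 (ENSG00000091831, GRCh38 chromosome 6, 151656691 to 152129619) was listed at 0, 0 and 0.0149 TPM in sh-LINC00958 and at 0 and 0 TPM in sh-NC. PGR (ENSG00000082175, chromosome 11, 101029624 to 101130524) was listed at 0, 0 and 0 TPM in sh-LINC00958 and at 0 and 0.0264 TPM in sh-NC. FOXA2 (ENSG00000125798, chromosome 20, 22581005 to 22585455), a pioneer factor of the endometrial glands, was listed at 0 TPM in all 5 libraries. No fold change is given for these genes. Zeros were rare among genes that every cell uses, since of 80 ribosomal protein genes only RPL10L, a copy used mainly in testis, and of 16 other housekeeping genes 0, were at 0 in any library. These counts do not show whether a gene at a low level would be detected, since depth is unknown. As listed, the 2 receptor values differ from the usual description of the line.

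Among other steroid receptors, ESR2 and NR3C2 were low, and the glucocorticoid receptor gene NR3C1 was higher. NR3C1 measured 8.69, 9.99 and 9.13 TPM in sh-LINC00958 and 11.4 and 8.17 TPM in sh-NC, with overlapping groups. ESR2, which encodes estrogen receptor beta, averaged 1.32 ± 0.431 TPM in sh-LINC00958 (SD, n = 3) and 1.04 ± 0.780 TPM in sh-NC (SD, n = 2). The mineralocorticoid receptor gene NR3C2 averaged 0.971 ± 0.243 TPM in sh-LINC00958 and 1.44 ± 0.186 TPM in sh-NC (limma adjusted p = 0.308).

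Among the relatives of the 9 genes, 1 passed the test, the orphan receptor gene ESRRA. ESRRA encodes estrogen-related receptor alpha, which binds no estrogen and is known for control of mitochondrial energy genes. It measured 47.6, 41.3 and 46.2 TPM in sh-LINC00958 and 22.5 and 20.03 TPM in sh-NC, so the lowest sh-LINC00958 library lay above both controls. On the log2(TPM + 1) scale, which understates changes of low genes, it rose by 1.05 with a 95% interval of 0.78 to 1.31 (limma adjusted p = 0.0103 with Benjamini-Hochberg adjustment over 17049 genes). With the trend on GC content and length removed ESRRA rose by 0.84 (limma adjusted p = 0.0138). The ESRRA call was lost when either control library, sh-NC replicate 1 (limma adjusted p = 0.0672) or 2 (0.0838), was left out, and likewise for sh-LINC00958 replicate 1 (0.0557). Its processed copies ESRRAP1 and ESRRAP2, whose reads could be confused with ESRRA, stayed at or below 0.303 TPM. ESRRB averaged 1.93 ± 1.01 TPM in sh-LINC00958 and 0.804 ± 0.467 TPM in sh-NC (limma adjusted p = 0.234), and ESRRG was at 0 in all 5 libraries.

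**Figure D2:**
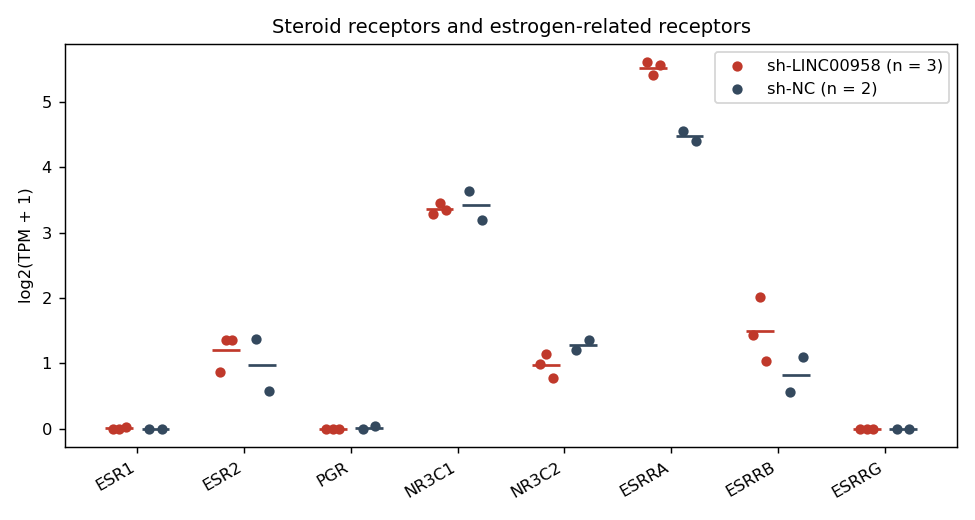
Level of steroid receptor and estrogen-related receptor genes as log2(TPM + 1) in each library; points are libraries, bars are group means, sh-LINC00958 (n = 3) left of sh-NC (n = 2). ESRRA is the highest, and ESR1, PGR and ESRRG lie at or next to 0. Groups do not overlap in ESRRA and NR3C2, as in 49.9% of all genes tested.

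In the list of 17 steroid receptors and paralogs of the 9 genes, 8 had a mean of at least 1 TPM, and of these 1 rose (ESRRA), 0 fell and 7 did not pass. Over all genes tested 4.12% were called higher and 5.68% lower. The median log2 fold change of the 8 was -0.16, against 0.0014 over all genes tested. SOX7, a close relative of SOX17, measured 5.48, 6.98 and 4.77 TPM in sh-LINC00958 and 9.68 and 9.67 TPM in sh-NC (log2 fold change -0.68, limma adjusted p = 0.0601). SOX7 was called lower with sh-LINC00958 replicate 2 left out (-0.80, limma adjusted p = 0.0301) and among genes with a mean of at least 5 TPM (limma adjusted p = 0.0498). Without single libraries the SOX7 log2 fold change ranged from -0.80 to -0.57. GREB1L, the paralog of GREB1, had a log2 fold change of -0.40 (limma adjusted p = 0.167). PAX2 and MSX2, the near relatives of PAX8 and MSX1, were at 0 in all 5 libraries, and FOXA3 did not exceed 0.0478 TPM.

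None of the 6 tested genes of the 9 passed the test between sh-LINC00958 and sh-NC, in either direction, while 9.80% of all 17049 genes tested did. At an unadjusted p under 0.05 limma gave 3 that were lower (PAX8, SOX17 and FOXA1) and 0 higher, while 16.3% of all genes tested were lower and 14.3% higher at that p. These 3 had groups that did not overlap, as did 49.9% of all genes tested, with 25.5% lower. An exact two-sided permutation test cannot go below p = 0.1 with 3 libraries against 2, and it gave p = 0.1 for each of them. The median log2 fold change of the 6 was -0.12.

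GREB1 is a chromatin-bound cofactor of estrogen receptor alpha, and its gene is one of the best known estrogen-induced genes. It measured 5.38, 5.54 and 4.17 TPM in sh-LINC00958 and 6.08 and 4.43 TPM in sh-NC, with overlapping groups, in cells where ESR1 was next to 0. The gene (ENSG00000196208, chromosome 2, 11482341 to 11642788) had a limma estimate of -0.05 on the log2 scale, 95% interval from -0.50 to 0.41 (adjusted p = 0.888). Its sign was positive without sh-LINC00958 replicate 3 (0.06) or without sh-NC replicate 1 (0.14). Of 18 other estrogen-induced genes, 11 were tested, of which SIAH2 and ADCY9 were called higher and CCND1, the cyclin D1 gene, lower. The shares over all genes tested were 4.12% higher and 5.68% lower. At an unadjusted limma p under 0.05, 5 of the 11 were higher and 2 lower, against 14.3% and 16.3% over all genes tested. The median log2 fold change of the 11 was 0.15. CCND1 averaged 420.8 ± 25.4 TPM in sh-LINC00958 and 702.05 ± 6.77 TPM in sh-NC, whereas TFF1 and CXCL12 were at 0 in all 5 libraries. SIAH2 and ADCY9 were not called once the GC and length trend was taken out. CCND1 lost its call when sh-LINC00958 replicate 1 (limma adjusted p = 0.0545) or either control library (0.0867 without sh-NC replicate 1, 0.0887 without replicate 2) was left out, SIAH2 with any library but sh-LINC00958 replicate 2 left out (up to 0.174) and ADCY9 with any library left out (up to 0.192).

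FOXA1 is a pioneer factor that opens chromatin for steroid receptors. It measured 5.60, 6.12 and 6.19 TPM in sh-LINC00958 and 10.4 and 7.17 TPM in sh-NC. The sh-LINC00958 libraries lay close together and below both controls, which differed from each other by more than the whole sh-LINC00958 range. The gene (ENSG00000129514, chromosome 14, 37589984 to 37596059) had a limma estimate of -0.47 on the log2 scale, 95% interval from -0.90 to -0.05 (adjusted p = 0.135). Its size depended on the control libraries: FOXA1 had -0.23 with sh-NC replicate 1 left out and -0.71 with sh-NC replicate 2 left out. The neighbouring gene TTC6 shares 16 exonic bases with FOXA1 on the other strand and did not exceed 0.187 TPM.

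PAX8 is a paired-box factor of the Müllerian and thyroid lineages that pathologists use as a marker of endometrial carcinoma. It measured 715.7, 695.8 and 706.04 TPM in sh-LINC00958 and 822.9 and 802.0 TPM in sh-NC. All 3 sh-LINC00958 libraries lay below both controls, and both groups were tight. The means were 705.8 ± 9.98 TPM in sh-LINC00958 (SD, n = 3) and 812.4 ± 14.8 TPM in sh-NC (SD, n = 2), so that the sh-LINC00958 mean was 86.9% of the sh-NC mean. The gene (ENSG00000125618, chromosome 2, 113215997 to 113278950) had a limma estimate of -0.20 on the log2 scale, 95% interval from -0.35 to -0.05 (adjusted p = 0.0873).

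SOX17 is an SRY-related factor needed for endometrial glands in the mouse and mutated in part of endometrial carcinomas. It measured 61.1, 62.2 and 55.6 TPM in sh-LINC00958 and 70.9 and 73.7 TPM in sh-NC. Again every sh-LINC00958 library lay below both controls. The gene (ENSG00000164736, chromosome 8, 54457935 to 54460888) averaged 59.6 ± 3.56 TPM in sh-LINC00958 and 72.3 ± 1.92 TPM in sh-NC, a limma estimate of -0.28 on the log2 scale, 95% interval from -0.49 to -0.06 (adjusted p = 0.0974).

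MSX1 is a homeobox factor of the uterine epithelium that in the mouse takes part in implantation. It measured 317.8, 310.7 and 326.2 TPM in sh-LINC00958 and 322.04 and 323.4 TPM in sh-NC, and both controls lay inside the sh-LINC00958 range. The gene (ENSG00000163132, chromosome 4, 4859666 to 4863936) had a limma estimate of -0.02 on the log2 scale, 95% interval from -0.18 to 0.14 (adjusted p = 0.858).

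PAX8 overlaps the antisense transcript PAX8-AS1, which shares 685 exonic bases (9.26% of PAX8 exons) on the other strand. The strand setting of the libraries is not given in the sources used here, so reads in the shared part cannot be told apart. PAX8-AS1 measured 71.7, 68.3 and 65.7 TPM in sh-LINC00958 and 78.4 and 78.3 TPM in sh-NC (log2 fold change -0.19, limma adjusted p = 0.165). PAX8 stood at 9.98, 10.2 and 10.7 times PAX8-AS1 in sh-LINC00958 and at 10.5 and 10.2 times in sh-NC, with overlapping groups. PGR-AS1, which shares exonic bases with PGR, was at 0 in all 5 libraries.

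FOXO1 is a forkhead factor held in check by AKT signalling and a partner of the progesterone receptor when endometrial stroma decidualizes. It measured 14.2, 15.08 and 25.6 TPM in sh-LINC00958 and 18.2 and 15.05 TPM in sh-NC. Replicate 3 of sh-LINC00958 lay above all other libraries, replicate 1 below both controls and replicate 2 between the controls. The gene (ENSG00000150907, chromosome 13, 40469953 to 40666597) had a limma estimate of 0.09 on the log2 scale, 95% interval from -0.55 to 0.73 (adjusted p = 0.850). The FOXO1 log2 fold change was -0.17 without sh-LINC00958 replicate 3. LINC00598 shares 269 exonic bases with FOXO1 on the same strand and did not exceed 1.08 TPM, and the processed copy FOXO1B was at 0 in all 5 libraries.

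**Figure D3:**
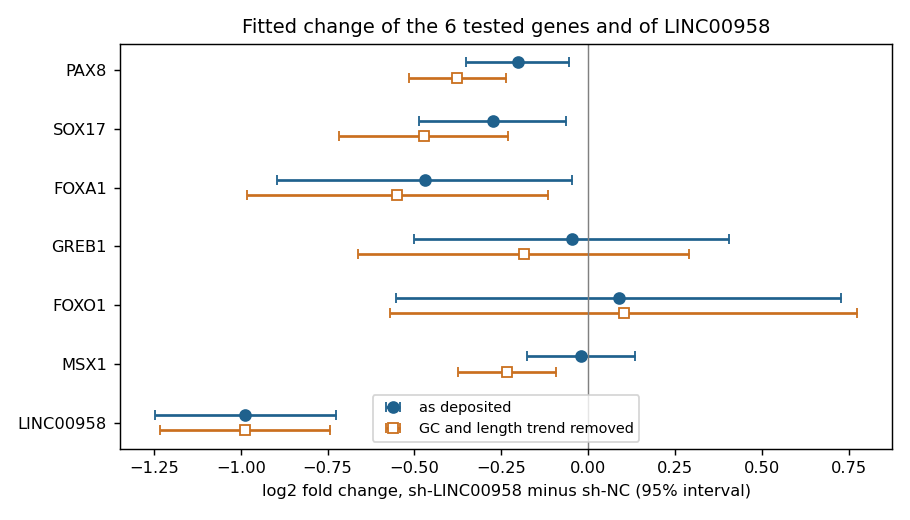
Fitted log2 fold change (sh-LINC00958 minus sh-NC, log2(TPM + 1) scale) of the 6 tested genes and LINC00958 with 95% intervals; filled circles are the fit on the deposited values, open squares the fit with the trend on GC content and length taken out. The estimates of all 6 but FOXO1 lie below 0 in both fits, and PAX8 alone of the 6 passes, in the second.

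Fold changes in these libraries moved with the GC content of the transcript, and PAX8, SOX17 and MSX1 are GC-rich. The longest transcript had 57.0% GC in PAX8, 58.3% in SOX17 and 59.9% in MSX1, against 53.6% in GREB1, 51.3% in FOXA1 and 46.4% in FOXO1. When tested genes were split in 4 by GC content, the median log2 fold change was -0.29 in the lowest part and 0.18 in the highest. Genes within 2 percentage points of PAX8 had a median log2 fold change of 0.15, against -0.20 in PAX8. Around SOX17 that median was 0.16, against -0.28 in SOX17, and around MSX1 it was 0.17, against -0.02 in MSX1. Once the trend on GC content and exon length was taken out, 4.44% of genes were called (2.38% lower and 2.06% higher), and of the 6 genes PAX8 alone passed, as lower (limma estimate -0.38 on the log2 scale, 95% interval from -0.52 to -0.24, adjusted p = 0.0310). SOX17 had -0.47 (limma adjusted p = 0.0573) and MSX1 -0.23 (limma adjusted p = 0.0797). With that removal, FOXA1 had -0.55 (limma adjusted p = 0.134), GREB1 -0.19 (limma adjusted p = 0.593) and FOXO1 0.10 (limma adjusted p = 0.849). LINC00958 kept its value, at -0.99 before and after. The part of GC content in the PAX8, SOX17 and MSX1 values was not tested otherwise.

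**Figure D4:**
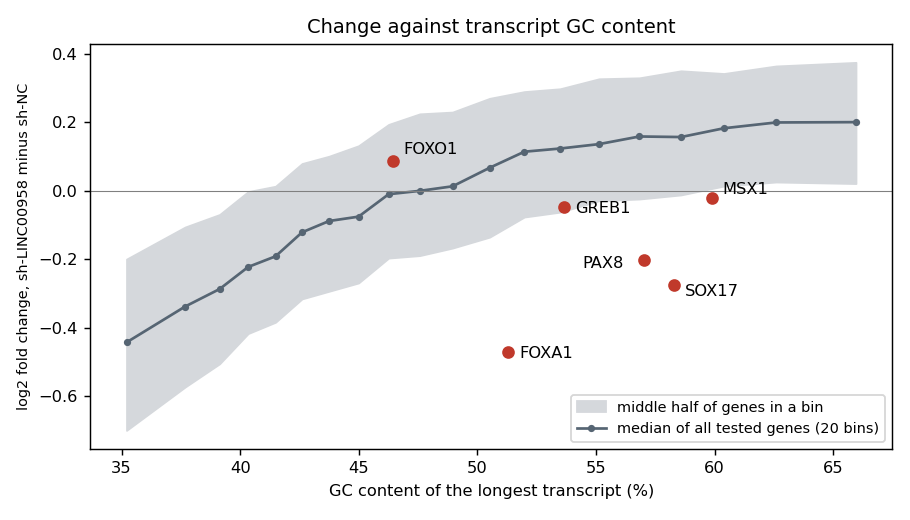
Log2 fold change (sh-LINC00958 minus sh-NC) against GC content of the longest transcript; the line and points are medians of 20 bins of all tested genes, the band is the interquartile range of each bin, and labelled points are the 6 tested genes. PAX8, SOX17 and FOXA1 lie below the band at their GC content, MSX1 lies just below its lower edge, and GREB1 and FOXO1 lie inside it.

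Other lineage factors with known roles in the female tract included 2 that fell and 1 that rose among 11 tested of 17 listed. The shares over all genes tested were 5.68% lower and 4.12% higher. EMX2, a homeobox factor required for the reproductive tract in the mouse, measured 32.9, 30.3 and 25.9 TPM in sh-LINC00958 and 51.5 and 50.1 TPM in sh-NC (log2 fold change -0.76, limma adjusted p = 0.0247). SOX9, an SRY-related factor of glandular progenitors, measured 64.3, 65.6 and 52.6 TPM in sh-LINC00958 and 87.6 and 86.4 TPM in sh-NC (log2 fold change -0.52, limma adjusted p = 0.0480). For both, all sh-LINC00958 libraries lay below both controls, and EMX2 and SOX9 were still called lower with the GC and length trend removed (-0.86 and -0.59). The ligand gene WNT7A, a uterine patterning signal, measured 4.42, 4.26 and 5.08 TPM in sh-LINC00958 and 2.42 and 2.25 TPM in sh-NC (log2 fold change 0.74, limma adjusted p = 0.0349), and after that removal WNT7A was not called (0.60, limma adjusted p = 0.0657). The median log2 fold change of the 11 was -0.48. Without sh-NC replicate 1 or 2 the limma adjusted p was 0.130 and 0.133 for EMX2, 0.186 and 0.191 for SOX9 and 0.145 and 0.167 for WNT7A. It was also above the threshold without sh-LINC00958 replicate 1 (0.0660, 0.119 and 0.116) or replicate 3 (0.0514, 0.0728 and 0.0864), with the genes in the same order.

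HOXA10, which shares the list, measured 12.1, 16.03 and 5.91 TPM in sh-LINC00958 and 29.9 and 34.6 TPM in sh-NC (log2 fold change -1.52, limma adjusted p = 0.0568). EMX2 is overlapped on the other strand by EMX2OS and SOX9 by SOX9-AS1, and these did not exceed 2.08 and 4.65 TPM.

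**Figure D5:**
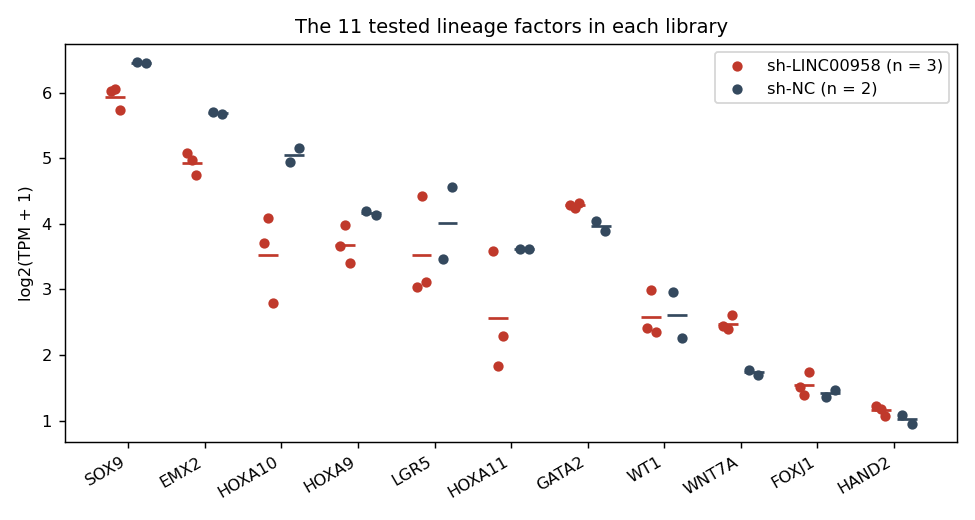
Level of the 11 tested lineage factors outside the 9 genes as log2(TPM + 1) in each library; points are libraries, bars are group means, sh-LINC00958 (n = 3) left of sh-NC (n = 2). Groups do not overlap in 7 of the 11, against 49.9% of all genes tested: SOX9, EMX2, HOXA10, HOXA9 and HOXA11 lie lower and WNT7A and GATA2 higher in every sh-LINC00958 library than in both sh-NC libraries.

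The machinery that serves steroid receptors was expressed, and none of its 19 listed genes passed in limma in either direction, with 4 lower and 0 higher at an unadjusted p under 0.05, against 16.3% lower and 14.3% higher over all genes tested. The chaperone gene HSP90AB1 averaged 2174 ± 87.7 TPM in sh-LINC00958 and 2076 ± 25.8 TPM in sh-NC. The gene with the smallest p was FKBP5, an immunophilin that slows receptor maturation and is itself induced by glucocorticoids and progestins. FKBP5 measured 16.7, 17.9 and 28.5 TPM in sh-LINC00958 and 35.6 and 36.2 TPM in sh-NC (limma estimate -0.78 on the log2 scale, 95% interval from -1.35 to -0.22, adjusted p = 0.0833). The demethylase gene KDM1A (-0.28, limma adjusted p = 0.1103) and the coactivator gene NCOA2 (-0.39, limma adjusted p = 0.116) followed. FKBP5 was called lower with sh-LINC00958 replicate 3 left out (-1.01, limma adjusted p = 0.0341) and KDM1A with sh-LINC00958 replicate 2 left out (-0.35, limma adjusted p = 0.0376). The limma adjusted p was higher than with all libraries for FKBP5 without sh-LINC00958 replicate 1 (0.193) or 2 (0.144). It was also higher for KDM1A without sh-LINC00958 replicate 1 (0.259) or 3 (0.221). The median log2 fold change of the 19 was 0.07.

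Genes known as progesterone or decidual targets in endometrium were partly silent. BMP2, ZBTB16, PRL and HSD17B2 were at 0 in all 5 libraries, and the decidual marker IGFBP1 did not exceed 0.377 TPM. Of 17 listed, 11 were tested and none passed in limma, with 1 higher (ERRFI1) and 0 lower at an unadjusted p under 0.05, against the same 14.3% higher and 16.3% lower over all genes tested. ERRFI1, a feedback inhibitor of the EGF receptor, averaged 65.6 ± 5.69 TPM in sh-LINC00958 and 49.4 ± 2.24 TPM in sh-NC (log2 fold change 0.40, limma adjusted p = 0.0628), and SPP1, the osteopontin gene, had a log2 fold change of 0.43 (limma adjusted p = 0.192). PAEP, the glycodelin gene of the secretory phase, had a limma estimate of 0.56 on the log2 scale (95% interval from -0.24 to 1.36, adjusted p = 0.298). The PAEP estimate was 0.93 with sh-NC replicate 1 left out and 0.19 with sh-NC replicate 2 left out, and ERRFI1 was called higher with sh-LINC00958 replicate 2 left out (0.47, limma adjusted p = 0.0314). ERRFI1 was not called without sh-LINC00958 replicate 1 (0.37, limma adjusted p = 0.177) or 3 (0.35, limma adjusted p = 0.141). The median log2 fold change of the 11 was 0.02.

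Targets of FOXO factors included 3 that fell among 12 tested of 14 listed, and 0 rose, against 5.68% lower and 4.12% higher over all genes tested. At an unadjusted limma p under 0.05, 4 were lower and 3 higher, against 16.3% and 14.3% over all genes tested. Those higher included BCL6 (log2 fold change 0.59, limma adjusted p = 0.123) and BCL2L11 (1.10, limma adjusted p = 0.129). SESN3, a sestrin gene, measured 9.27, 12.2 and 7.70 TPM in sh-LINC00958 and 25.6 and 24.3 TPM in sh-NC (log2 fold change -1.30, limma adjusted p = 0.0211). CDKN1B, which encodes the cell cycle inhibitor p27, had a log2 fold change of -0.67 (limma adjusted p = 0.0217), and TXNIP, a thioredoxin inhibitor, -0.37 (limma adjusted p = 0.0480). Once the trend on GC content and length was taken out, SESN3 and CDKN1B were still called lower, TXNIP was not (limma adjusted p = 0.0727), and PDK4, a kinase that limits pyruvate oxidation, was called higher. PDK4 measured 6.64 ± 0.492 TPM in sh-LINC00958 and 4.35 ± 0.124 TPM in sh-NC (log2 fold change 0.51 before the removal, limma adjusted p = 0.0604). The median log2 fold change of the 12 was -0.05. SESN3, CDKN1B and TXNIP lost their calls when any library other than sh-LINC00958 replicate 2 was left out (highest limma adjusted p 0.125, 0.133 and 0.210). FOXO3, the other forkhead factor of the family at a comparable level, averaged 9.87 ± 0.811 TPM in sh-LINC00958 and 11.999 ± 0.0712 TPM in sh-NC (limma adjusted p = 0.195), and its near-identical copy FOXO3B was listed at 3.63 to 4.97 TPM, so both values are uncertain.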

How the data were processed

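RNA sequencing of 5 libraries was deposited by the authors as 1 table of TPM values per gene. Per the submitters' processing notes, the tools included HISAT2 2.0 and StringTie 1.3.3b, with Trimmomatic 0.36 and FastQC 0.11.2, on GRCh38; the sources used here do not give the annotation release. TPM fixes each library's total, so an increase of some RNAs lowers the others. Coordinates, exon length and transcript GC content came from GENCODE release 29, which held 57836 of the 58174 gene IDs.

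Genes with a mean of at least 1 TPM (17049) were tested by limma 3.58.1 (R 4.3.3), with values as log2(TPM + 1), a linear model per gene and eBayes with a mean-variance trend. Tests were two-sided, and p-values were adjusted by Benjamini-Hochberg over these genes, with a threshold of 0.05. The GC and length trend was removed per library with natural splines of 5 degrees of freedom in GC content and in log2 exon length, over the 16999 tested genes with annotation. The fit and the removal were checked on simulated data. From each list the text names genes past the threshold and the 3 with the smallest p; others were named after their values were seen. The 9 genes and the 6 lists were chosen with earlier results of these data known. Alternatives were pseudocounts 0.1 and 5, other filters and scalings, other variance settings, a replicate block, and leaving out each library.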

Additional observations from a re-analysis of the deposited data

How the results depend on the processing

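Over 17 alternatives none of the 9 genes was called higher, and PAX8 alone was called lower, in 1 of them (GC and length trend removed). PAX8, SOX17, FOXA1 and MSX1 had a negative log2 fold change in all 17 (PAX8 -0.38 to -0.18, SOX17 -0.47 to -0.23, FOXA1 -0.71 to -0.23, MSX1 -0.23 to -0.0032). FOXO1 and GREB1 changed sign. Without sh-LINC00958 replicate 3, FOXO1 had -0.17 and GREB1 0.059. A replicate block gave the same estimates by construction, since sh-NC has no replicate 3 and that library drops out of the comparison. FOXO1 had -0.16 with the block and the GC and length removal together and -0.04 without sh-NC replicate 2. GREB1 had 0.14 without sh-NC replicate 1. Without single libraries FOXO1 ranged from -0.17 to 0.23 and GREB1 from -0.24 to 0.14. The cause of the sign changes was not tested otherwise. Genes called higher and lower over the whole table (702 and 969) numbered 207 and 269 with no filter, 371 and 518 without the variance trend and 351 and 404 with the GC and length trend removed. Leaving out single libraries gave 10 to 905 higher and 6 to 1491 lower, the smallest counts without sh-NC replicate 2.

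The labels number libraries alike in both groups but do not say that a number marks a shared culture. Deviations from group means correlated at 0.0013 and 0.050 in same-numbered libraries. They correlated at 0.048 between sh-LINC00958 replicate 3 and sh-NC replicate 1. The deviations of the 2 sh-NC libraries are exact opposites, so these correlations cannot tell whether libraries were paired. With the replicate block 0 genes were called higher and 2 lower, and 0 and 1 with the block and the GC and length removal. At an unadjusted limma p under 0.05 the block gave 2000 higher and 2213 lower, and 1675 and 1756 with the removal. The block fit compares only the libraries numbered 1 and 2 and leaves fewer residual degrees of freedom than the main fit. A call lost with the block therefore cannot show that an effect is absent. The block left LINC00958 uncalled (log2 fold change -0.92, limma adjusted p = 0.104; -0.93 with the removal), and without single libraries LINC00958 ranged from -1.09 to -0.89 (limma adjusted p = 0.0189 to 0.0874), with the call lost without sh-LINC00958 replicate 1 or either sh-NC library. The depth is unknown, so values near 0 cannot be bounded.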

Other observations

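The closest profiles to the tested genes, by root mean square difference of centred log2(TPM + 1) over the 5 libraries, are given as description. For PAX8 it was RPA1, a subunit of the single-stranded DNA binding complex (difference 0.0116), at 117.5, 114.96 and 114.04 TPM in sh-LINC00958 and 134.1 and 132.0 TPM in sh-NC. For SOX17 it was the zinc finger gene ZNF443 (0.0115), for MSX1 the antisense transcript AC123788.1 (0.0112), for GREB1 SHISA4 (0.0177), for FOXA1 FAM122B (0.0445) and for FOXO1 CRIP1 (0.0470). CRIP1 has the same high library as FOXO1, at 4.89, 5.11 and 9.52 TPM in sh-LINC00958 and 6.93 and 5.60 TPM in sh-NC. With 5 libraries many genes lie about as close, and nothing about shared control follows.

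CDX2, an intestinal lineage factor, was detected in every library, at 2.98, 2.42 and 2.80 TPM in sh-LINC00958 and 2.19 and 2.05 TPM in sh-NC.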
